A study of Rattus norvegicus with 6 samples.

Results

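The nuclear pore and nuclear transport genes were taken as all rows of the gene table whose symbol began with Nup, Kpna, Kpnb or Ipo and a number, or with Xpo and a number or the letter t, together with Tpr, Ranbp2, Ran, Rangap1, Nutf2, Tnpo1, Tnpo2 and Tnpo3. The rule found 51 of the 33508 rows. They carry 50 symbols, because Nup214 has 2 rows under separate identifiers. Counts were above 0 in at least 1 library for 49 rows, and 48 had enough counts to be tested. They were compared between 3 libraries of BMSCs-OE-FNDC5 and 3 libraries of BMSCs-OE-NC, which asks how the overexpression changed transcripts in stressed cells. BMSCs are bone marrow mesenchymal stem cells, here from male Sprague–Dawley rats aged 2 months, used after 3 passages. BMSCs-OE-FNDC5 carried a lentivirus with rat Fndc5 and BMSCs-OE-NC a blank lentivirus, and transduction lasted 72 h in both, with a multiplicity of infection of 10. Both groups then went through hypoxia and serum deprivation (H/SD) for 24 h, in medium without glucose or serum under 1% O2, 94% N2 and 5% CO2, so no group was free of H/SD. The labels call the libraries biological replicates, and neither they nor the methods state if each had its own rat, culture or transduction. All p-values thus measure the spread between these libraries, which may be technical.

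The nuclear pore is a large ring-shaped channel through the nuclear envelope, built from many copies of proteins called nucleoporins. Those with phenylalanine-glycine repeats fill the channel, and carriers of the importin beta family bind the repeats while they take cargo across. The small GTPase Ran sets the direction, since its GTP form is made in the nucleus, where it releases import cargo and binds exportins with their cargo, and its GTP is hydrolysed in the cytoplasm. Importin alpha proteins are adaptors that tie cargo with a classical nuclear localisation signal to importin beta.

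Fndc5, which encodes the precursor of irisin, had 65589, 64672 and 64195 counts in BMSCs-OE-FNDC5, against 22, 17 and 25 counts in BMSCs-OE-NC. The log2 fold change was 11.98 (SE 0.06, adjusted p = 1.3e-16). Library totals ran from 16640635 to 17229490 counts in BMSCs-OE-FNDC5 and from 17430287 to 17965722 in BMSCs-OE-NC. At an adjusted p under 0.05, 36.9% of all tested genes were higher and 38.8% were lower. All 10 marrow stromal markers were tested, of which 4 were higher and 5 were lower, from Thy1 at a log2 fold change of 1.29 to Pdgfra at -1.86. Their summed level was 11300 to 11800 CPM (counts scaled to a common library size) in BMSCs-OE-FNDC5 and 10000 to 10500 CPM in BMSCs-OE-NC. Without Vim the order turned, with 5080 to 5470 CPM in BMSCs-OE-FNDC5 and 6670 to 7250 CPM in BMSCs-OE-NC. Of the blood cell markers, only Cd14 and Cd68 were high enough to test and both were higher, with a summed level over the list of 198 to 206 CPM against 98.1 to 104 CPM in BMSCs-OE-NC. Ptprc and Hbb stood at 0. Of the endothelial markers only Egfl7 was tested, and the list summed to 90.6 to 94.0 CPM against 51.8 to 55.3 CPM in BMSCs-OE-NC, with Kdr and Cdh5 at 0. Retinal markers were at most 0.0662 CPM in sum in BMSCs-OE-FNDC5 and 0.253 CPM in BMSCs-OE-NC. The part of these other markers in the results was not tested. In bulk RNA, fewer cells of a type and less RNA per cell cannot be told apart.

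In the main comparison, most of the nuclear pore and transport transcripts were less abundant in BMSCs-OE-FNDC5. Of the 48 tested, 32 were lower (66.7%) and 9 were higher (18.8%) at an adjusted p under 0.05, and 7 did not pass the test. Over all 12104 genes tested, 38.8% were lower and 36.9% were higher by the same rule. The falls included the importin alpha genes Kpna3 and Kpna4, the import receptors Ipo7 and Tnpo1, and all exportins. The rises included Ran, Rangap1 and Nutf2 of the Ran cycle and the channel nucleoporin Nup62. Ran and Nutf2 did not keep that direction under every scaling, and many of the falls did not hold either. With the trend with gene length removed, 15 members were higher and 19 were lower. Of the 32 falls, 18 then kept their call and 4 were called higher. Xpo4, Xpo5 and Xpo6 were among those that lost their call.

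Beyond a log2 change of 1 in size, 10 members were lower (20.8%, where 17.5% of all tested genes were) and 0 were higher (9.84% of all tested genes). The highest log2 fold change of any tested member was 0.73, so that this count was also 0 without regard to p in edgeR, and it was 0 in all 18 alternative analyses, DESeq2 and limma included. The 10 include Kpna5, which passed the filter on low counts through BMSCs-OE-NC, as did Nup210 among the other lower members. With at least 10 counts in every library, which drops both, 9 members were higher and 30 were lower, 11 of them beyond this size. The groups did not overlap in scaled CPM for 42 of the 48 members (87.5%), and this was so for 78.3% of all tested genes. The median log2 fold change was -0.64 over the members and -0.04 over all tested genes. Among the pore genes, 14 of 23 tested were lower and 3 were higher (median -0.51). Among the carriers and Ran cycle genes, 18 of 25 tested were lower and 6 were higher (median -0.67).

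The split between higher and lower members depended on the scaling. Values here carry TMM scaling (a trimmed mean over genes sets the scale), with factors of 0.877 to 0.882 in BMSCs-OE-FNDC5 and 1.13 to 1.14 in BMSCs-OE-NC. With library size only, which shifts the median over all genes by -0.37 (log2), 4 members were higher and 39 were lower. The median of the members stayed 0.60 below that of all genes (difference -0.60) under both, and also with upper-quartile scaling (shift -0.10) and the scaling of DESeq2. Long genes tended to be lower in BMSCs-OE-FNDC5 across the whole table (Spearman rho of log2 fold change with gene length -0.443 over 12104 genes, and -0.290 over the 48 members). Genes are not independent replicates, and both correlations are descriptions. The members were longer, with a median of 3597.5 bases against 2262 over all tested genes. With each library's trend with length removed, 15 members were higher and 19 were lower, against 4642 and 4050 of all 12104 genes, and the median of the members was -0.07. In all 18 alternatives, 4 higher members (Rangap1, Nup85, Nup62 and Ipo4) and 17 lower members kept their call and direction.

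**Figure D1:**
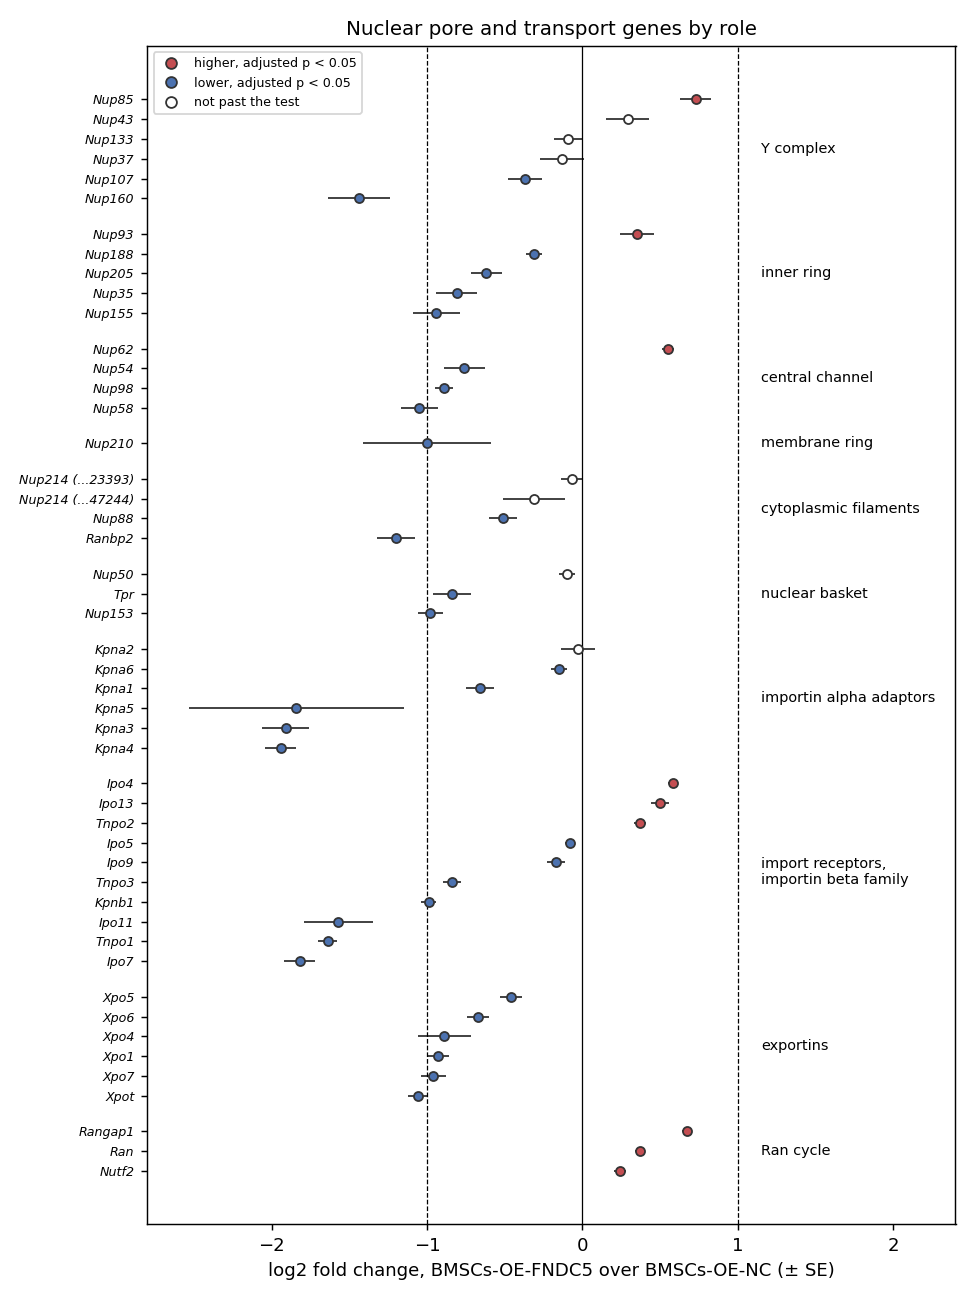
Log2 fold change (x axis, BMSCs-OE-FNDC5 over BMSCs-OE-NC, points with bars of 1 SE) of the 48 tested members, grouped by role, with TMM scaling. Red points are higher and blue points lower at an adjusted p under 0.05, white points did not pass, and dashed lines mark log2 changes of -1 and 1. The 10 members lower past both thresholds run from Nup58 at -1.05 to Kpna4 at -1.94, and no point lies right of 1.

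The Y complex builds the outer rings of the pore scaffold, and the 6 genes grouped with it here did not move as one. Nup85 was higher, Nup160 and Nup107 were lower, and Nup133, Nup37 and Nup43 did not pass the test. Nup85 (chromosome 10) had 25.1, 26.7 and 23.6 CPM in BMSCs-OE-FNDC5, against 13.6, 16.2 and 15.7 CPM in BMSCs-OE-NC. All 3 libraries of BMSCs-OE-FNDC5 were above all 3 of BMSCs-OE-NC, and the log2 fold change was 0.73 (SE 0.10, adjusted p = 3.2e-05). Nup160 (chromosome 3) had 1.46, 1.30 and 1.39 CPM in BMSCs-OE-FNDC5, against 4.18, 3.49 and 3.64 CPM in BMSCs-OE-NC. Here the order was the opposite, with a log2 fold change of -1.44 (SE 0.20, adjusted p = 5.8e-05). The counts behind Nup160 were low, 19 to 22 in BMSCs-OE-FNDC5 and 70 to 85 in BMSCs-OE-NC. A further transcript next to it, annotated in the table as Nup160 but without that symbol, had 12, 2 and 9 counts against 23, 18 and 21 in BMSCs-OE-NC and did not pass the test. Nup107 had a log2 fold change of -0.37 (adjusted p = 0.012), which was -0.09 and no longer called with the length trend removed. The others had log2 fold changes of -0.09 (Nup133), -0.13 (Nup37) and 0.29 (Nup43).

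The inner ring, which surrounds the channel and anchors it to the membrane, had 4 lower genes and 1 higher gene out of 5. Nup155 (chromosome 2) had 5.69, 4.23 and 4.77 CPM in BMSCs-OE-FNDC5, against 9.24, 10.2 and 8.74 CPM in BMSCs-OE-NC. The groups were apart, with a log2 fold change of -0.94 (SE 0.15, adjusted p = 0.00016). Nup35, a small subunit, had a log2 fold change of -0.81, and the large scaffold subunits Nup205 and Nup188 had -0.62 and -0.31. Removal of the length trend left Nup155 at -0.41 and Nup35 at -0.99, both still called, whereas Nup205 stood at 0.15 and was not called and Nup188 was called higher at 0.29. Nup93, which ties the channel proteins to this ring, had 19.2, 24.9 and 24.0 CPM in BMSCs-OE-FNDC5, against 18.5, 16.5 and 18.2 CPM in BMSCs-OE-NC. Its lowest library in BMSCs-OE-FNDC5 lay just above the highest in BMSCs-OE-NC. The log2 fold change was 0.35 (SE 0.11, adjusted p = 0.012) with TMM and -0.02 with library size only. Without replicate 2 of BMSCs-OE-FNDC5 or replicate 2 of BMSCs-OE-NC it was 0.29 or 0.30 and no longer called.

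Nup62, Nup54 and Nup58 encode the subunits of a single complex whose phenylalanine-glycine repeats line the central channel, and their transcripts moved apart. Nup62 (ENSRNOG00000048733, chromosome 1) had 223, 206 and 227 CPM in BMSCs-OE-FNDC5, against 150, 147 and 151 CPM in BMSCs-OE-NC. Every library of BMSCs-OE-FNDC5 was above those of BMSCs-OE-NC, with a log2 fold change of 0.55 (SE 0.04, adjusted p = 1.8e-07). Nup58 (ENSRNOG00000012644, chromosome 15) had 5.75, 7.16 and 6.76 CPM in BMSCs-OE-FNDC5, against 13.9, 13.9 and 12.9 CPM in BMSCs-OE-NC. It was 2.07-fold lower (log2 fold change -1.05, SE 0.12, adjusted p = 1.4e-05). Nup54 (ENSRNOG00000002247, chromosome 14) had 8.27, 9.27 and 10.5 CPM in BMSCs-OE-FNDC5, against 15, 14.3 and 18.2 CPM in BMSCs-OE-NC, again without overlap. Its log2 fold change was -0.76 (SE 0.13, adjusted p = 0.00032). The gene models are of like length (2364, 2363 and 2478 bases for Nup62, Nup54 and Nup58), and all of them kept call and direction in the 18 alternatives. On the FPKM scale, which divides counts by gene length, Nup62 was already the most abundant of them in BMSCs-OE-NC. The ratio of Nup62 to Nup58 was 40.7, 30.1 and 35.1 in BMSCs-OE-FNDC5, against 11.3, 11.2 and 12.3 in BMSCs-OE-NC. For Nup62 to Nup54 it was 27.0, 22.2 and 21.5 in BMSCs-OE-FNDC5, against 9.98, 10.3 and 8.28 in BMSCs-OE-NC. These genes were set side by side after their values were known, and the ratios are a description. The fourth channel gene, Nup98, had 28.0, 25.9 and 25.5 CPM in BMSCs-OE-FNDC5, against 49.6, 49.5 and 48.6 CPM in BMSCs-OE-NC. Its log2 fold change was -0.89 (SE 0.06, adjusted p = 5.4e-08), and -0.06 and no longer called with the length trend removed. Nup62cl had 0 counts in every library.

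The promoters of the 3 subunits are printed because their transcripts parted within the same complex. They are RefSeq windows of 300 bases on GRCr8, from 250 bases before the annotated start to 50 after it, in the direction of transcription: chr1:104435778-104436077 on the plus strand for Nup62, chr14:15901784-15902083 on the plus strand for Nup54 and chr15:38583116-38583415 on the minus strand for Nup58. Capitals mark the GC box GGGCGG, the CCAAT box and the E box CACGTG, each searched on both strands.
Nup62: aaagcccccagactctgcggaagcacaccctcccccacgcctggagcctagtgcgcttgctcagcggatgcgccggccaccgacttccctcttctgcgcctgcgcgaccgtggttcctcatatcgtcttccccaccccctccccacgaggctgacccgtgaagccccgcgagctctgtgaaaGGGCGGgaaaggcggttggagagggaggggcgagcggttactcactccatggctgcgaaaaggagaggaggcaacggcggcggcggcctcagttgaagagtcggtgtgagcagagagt
Nup54: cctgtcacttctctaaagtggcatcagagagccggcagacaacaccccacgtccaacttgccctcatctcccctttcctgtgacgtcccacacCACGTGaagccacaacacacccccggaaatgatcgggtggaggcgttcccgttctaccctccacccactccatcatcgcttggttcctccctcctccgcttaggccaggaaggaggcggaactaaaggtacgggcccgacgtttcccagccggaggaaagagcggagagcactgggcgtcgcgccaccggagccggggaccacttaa
Nup58: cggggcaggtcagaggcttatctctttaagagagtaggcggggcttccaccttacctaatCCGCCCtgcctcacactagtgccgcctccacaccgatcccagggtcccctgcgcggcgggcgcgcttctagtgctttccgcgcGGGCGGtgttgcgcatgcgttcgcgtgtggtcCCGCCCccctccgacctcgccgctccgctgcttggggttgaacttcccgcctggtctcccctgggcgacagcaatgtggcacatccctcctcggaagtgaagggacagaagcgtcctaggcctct
In these windows Nup62 had 1 GC box, Nup54 had 1 E box and Nup58 had 3 GC boxes. Windows were found for 43 of the 50 member symbols. A GC box was in 62.8% of them, and in 65.1% of 8050 windows of tested genes and 35.9% of 24206 windows in all. The CCAAT box was in 48.8% of the members, in 38.3% of tested genes and in 37.8% of all windows. For the E box the shares were 16.3%, 9.94% and 6.74%. By the calls with TMM scaling, 9 windows belonged to higher members and 25 to lower members. A GC box was in 7 of the 9 (77.8%) and in 14 of the 25 (56.0%). The CCAAT box was in 3 of the 9 and in 11 of the 25, and the E box in 2 and 4. The differences between these shares were not tested, and the calls changed with the scaling. The boxes are matches of letters in a short window and not binding sites.

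On the cytoplasmic side of the pore, 2 of 4 rows were lower and 2 did not pass the test. Ranbp2, the large filament protein that binds Ran and SUMO-modified Rangap1, had 6.28, 5.52 and 6.29 CPM in BMSCs-OE-FNDC5, against 14.1, 14.3 and 13.1 CPM in BMSCs-OE-NC. It was 2.29-fold lower (log2 fold change -1.20, SE 0.12, adjusted p = 3.1e-06). Ranbp2 is the longest member at 10277 bases, and with the length trend removed its log2 fold change was -0.16 and not called. Nup88 fell as well (log2 fold change -0.51, adjusted p = 0.0005). Its partner Nup214 (ENSRNOG00000023393, 7407 bases) had 24.3, 23.1 and 23.8 CPM in BMSCs-OE-FNDC5, against 24.8, 25.2 and 24.9 CPM in BMSCs-OE-NC. The difference was small beside its error (log2 fold change -0.07, SE 0.07, adjusted p = 0.37), yet it was called lower at -0.44 with library size only and higher at 0.81 with the length trend removed. A second, shorter row under the symbol Nup214 (ENSRNOG00000047244, 837 bases) had 37 to 43 counts in BMSCs-OE-FNDC5 and 56 to 71 in BMSCs-OE-NC and did not pass the test. This row was called lower at -0.68 with library size only and at -0.81 with the length trend removed, so that the 2 rows were then called in opposite directions.

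In the nuclear basket, which reaches into the nucleus, Nup153 and Tpr were lower and Nup50 did not pass the test. Nup153 had 14.1, 14.5 and 14.1 CPM in BMSCs-OE-FNDC5, against 28.0, 28.8 and 27.4 CPM in BMSCs-OE-NC. It was 1.97-fold lower (log2 fold change -0.98, SE 0.08, adjusted p = 4.2e-07) and remained called at -0.21 with the length trend removed. Tpr, which forms the filaments of the basket, had a log2 fold change of -0.84 (adjusted p = 5.2e-05), and 0.04 with the length trend removed. Nup50, a mobile cofactor of import, had 42.9, 46.2 and 47.5 CPM in BMSCs-OE-FNDC5, against 46.5, 49.8 and 49.6 CPM in BMSCs-OE-NC, and the groups overlapped. Its log2 fold change was -0.10 (SE 0.05, adjusted p = 0.13). The membrane ring gene Nup210 was near the limit of detection, with 11, 7 and 5 counts in BMSCs-OE-FNDC5, against 23, 22 and 17 counts in BMSCs-OE-NC. The call rested on few reads (log2 fold change -1.0, SE 0.41, adjusted p = 0.045) and was lost when any library but replicate 1 of BMSCs-OE-FNDC5 was left out, with log2 fold changes from -0.76 to -1.12 and adjusted p from 0.054 to 0.14. Nup210l had at most 5 counts in a library and was not tested.

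The importin alpha genes Kpna4 and Kpna3 had the lowest log2 fold changes of all members with TMM scaling. Kpna4 (ENSRNOG00000010768) had 6.35, 5.93 and 6.09 CPM in BMSCs-OE-FNDC5, against 23.4, 23.1 and 24.1 CPM in BMSCs-OE-NC. It was 3.84-fold lower (log2 fold change -1.94, SE 0.10, adjusted p = 8.2e-09). Kpna3 (ENSRNOG00000014945), its closest relative in the family, had 3.24, 4.36 and 3.91 CPM in BMSCs-OE-FNDC5, against 15.5, 12.9 and 15 CPM in BMSCs-OE-NC. It was 3.76-fold lower (log2 fold change -1.91, SE 0.15, adjusted p = 3.8e-07). With the length trend removed they stood at -1.98 and -1.92. Kpna2 (ENSRNOG00000015329), an importin alpha that is abundant in dividing cells, had 15.1, 14.2 and 13.6 CPM in BMSCs-OE-FNDC5, against 16.8, 14.0 and 13.3 CPM in BMSCs-OE-NC. The groups overlapped and the log2 fold change was -0.03 (SE 0.11, adjusted p = 0.79). With library size only it was -0.40 and called. Kpna2 has 1952 bases, Kpna3 has 2075 and Kpna4 has 2016, and the part of gene length in their values was not tested. A Kpna2-like gene, LOC100359600, had 15 to 30 counts in BMSCs-OE-FNDC5 and 20 to 33 in BMSCs-OE-NC, and reads could be split between the copies.

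The remaining importin alpha genes moved less or were barely detected. Kpna1 had a log2 fold change of -0.66 (adjusted p = 3.7e-05) and Kpna6 of -0.15 (adjusted p = 0.018). With the length trend removed Kpna1 was not called at -0.03 and Kpna6 was called higher at 0.42. Kpna5 had 7, 0 and 3 counts in BMSCs-OE-FNDC5, against 20, 12 and 17 counts in BMSCs-OE-NC (log2 fold change -1.84, SE 0.69, adjusted p = 0.032). Its call was lost without replicate 2 (log2 fold change -1.28) or replicate 3 (-1.76) of BMSCs-OE-FNDC5, or without replicate 1 (-1.68) or replicate 3 (-1.81) of BMSCs-OE-NC. Without replicate 1 of BMSCs-OE-FNDC5 it was called at -2.93. Kpna5 and Nup210 were the 2 tested members under 10 counts in some libraries, and they passed the filter on low counts through BMSCs-OE-NC. Kpna7, known from mammalian oocytes and early embryos, had 0 counts.

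The makeup of the importin alpha pool, as each gene's share of the summed FPKM, differed between the groups. Kpna4 made up 11.5%, 10.8% and 11% in BMSCs-OE-FNDC5, against 24.9%, 27.0% and 26.9% in BMSCs-OE-NC. Kpna3 made up 5.72%, 7.72% and 6.85% in BMSCs-OE-FNDC5, against 16%, 14.6% and 16.2% in BMSCs-OE-NC. The share of Kpna6 was 43.3%, 43.7% and 45.5% in BMSCs-OE-FNDC5, against 29.5%, 29.7% and 30.8% in BMSCs-OE-NC. For Kpna2 it was 28.4%, 26.7% and 25.4% in BMSCs-OE-FNDC5, against 18.4%, 16.8% and 15.3% in BMSCs-OE-NC. No library overlapped the other group for these 4 genes, whereas the shares of Kpna1 overlapped at 10.1% to 11.1% in BMSCs-OE-FNDC5 and 9.72% to 11.1% in BMSCs-OE-NC. Shares within a library do not depend on the scaling between libraries, and a share can grow because others fall. The summed importin alpha level was 27.3, 27.3 and 27.6 FPKM in BMSCs-OE-FNDC5, against 46.0, 41.8 and 43.6 FPKM in BMSCs-OE-NC.

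**Figure D2:**
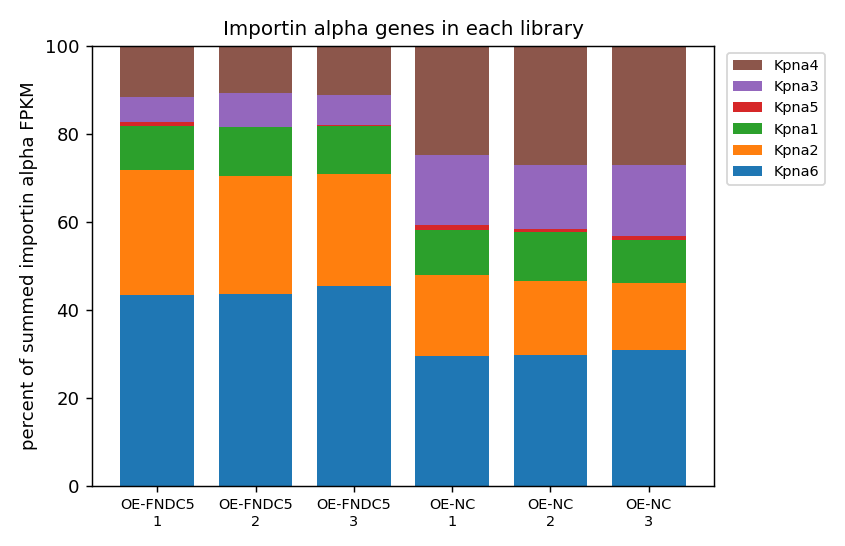
Share of each importin alpha gene (y axis, percent of the summed importin alpha FPKM) in the 3 libraries of BMSCs-OE-FNDC5 and the 3 of BMSCs-OE-NC. Kpna4 and Kpna3, at the top of each bar, take 10.8% to 11.5% and 5.72% to 7.72% in BMSCs-OE-FNDC5, against 24.9% to 27.0% and 14.6% to 16.2% in BMSCs-OE-NC.

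The promoters of Kpna2 and Kpna4 are printed as the pair of adaptors that differed most in response at similar gene length. The windows were taken in the same way, chr10:92445792-92446091 for Kpna2 and chr2:155690702-155691001 for Kpna4, both on the minus strand of GRCr8, with the same motifs in capitals.
Kpna2: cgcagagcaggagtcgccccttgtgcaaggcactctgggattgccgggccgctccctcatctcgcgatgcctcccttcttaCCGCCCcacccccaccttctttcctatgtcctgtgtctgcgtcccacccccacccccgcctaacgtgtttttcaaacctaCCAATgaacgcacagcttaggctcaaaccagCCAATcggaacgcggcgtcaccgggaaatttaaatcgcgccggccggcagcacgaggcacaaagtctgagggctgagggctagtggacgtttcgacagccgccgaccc
Kpna4: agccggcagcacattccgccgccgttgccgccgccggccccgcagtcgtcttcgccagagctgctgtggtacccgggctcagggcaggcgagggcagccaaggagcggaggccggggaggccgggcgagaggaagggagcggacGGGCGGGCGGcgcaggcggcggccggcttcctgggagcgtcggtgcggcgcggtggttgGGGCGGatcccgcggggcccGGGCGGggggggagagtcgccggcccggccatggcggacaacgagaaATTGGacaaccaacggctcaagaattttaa
Kpna2 had 1 GC box and 2 CCAAT boxes. Kpna4 had 4 GC boxes, of which the first and second overlap, and 1 match to the CCAAT box. That match lies after the annotated start. No window was used for Kpna3.

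The import receptors of the importin beta family went both ways, with 7 of 10 lower and 3 higher. Importin beta itself, Kpnb1, which carries the importin alpha adaptors, had 75, 86.2 and 77.3 CPM in BMSCs-OE-FNDC5, against 157, 159 and 157 CPM in BMSCs-OE-NC. It was 1.98-fold lower (log2 fold change -0.99, SE 0.05, adjusted p = 7.2e-09). Ipo7, which imports ribosomal proteins and linker histone, had 6.75, 6.21 and 6.36 CPM in BMSCs-OE-FNDC5, against 23.0, 21.7 and 23.6 CPM in BMSCs-OE-NC. It was 3.53-fold lower (log2 fold change -1.82, SE 0.10, adjusted p = 1.9e-08). Ipo11 had 1.46, 1.77 and 2.52 CPM in BMSCs-OE-FNDC5, against 5.35, 6.63 and 5.15 CPM in BMSCs-OE-NC. It was 2.97-fold lower (log2 fold change -1.57, SE 0.22, adjusted p = 6.2e-05), and an importin 11 pseudogene on chromosome 6, AABR07065420.1, that could share its reads also fell (log2 fold change -1.29, adjusted p = 0.0034). Kpnb1, Ipo7 and Ipo11 stayed lower with the length trend removed, at -0.28, -1.18 and -1.34.

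The closely related transportins Tnpo1 and Tnpo2 moved in opposite directions with TMM scaling. Tnpo1, which imports RNA-binding proteins, had 19.0, 17.4 and 19.6 CPM in BMSCs-OE-FNDC5, against 58.0, 57.0 and 59.2 CPM in BMSCs-OE-NC. It was 3.11-fold lower (log2 fold change -1.64, SE 0.06, adjusted p = 5.7e-10). Tnpo2 had 254, 270 and 247 CPM in BMSCs-OE-FNDC5, against 187, 206 and 203 CPM in BMSCs-OE-NC (log2 fold change 0.37, SE 0.04, adjusted p = 1.4e-05). The groups did not overlap for either gene. With library size only, Tnpo2 had a log2 fold change of 0.00 and Tnpo1 of -2.01. With the length trend removed they had 0.96 and -0.70, both called. The FPKM ratio of Tnpo2 to Tnpo1, which needs no scaling between libraries, was 23.0, 26.8 and 21.7 in BMSCs-OE-FNDC5, against 5.55, 6.21 and 5.91 in BMSCs-OE-NC. This pair too was chosen after its values were known. Tnpo3, which imports splicing factors of the SR family, had a log2 fold change of -0.84 (adjusted p = 3.3e-07), while Irf5, which overlaps it on the opposite strand, had 0.82. No strand setting is stated for the counting.

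Ipo4, an importer of histones, had 198, 193 and 186 CPM in BMSCs-OE-FNDC5, against 129, 130 and 128 CPM in BMSCs-OE-NC. It was 1.49-fold higher (log2 fold change 0.58, SE 0.03, adjusted p = 2.7e-08) and kept this call with library size only, at 0.21. Ipo13, which carries cargo in both directions, had a log2 fold change of 0.50 (adjusted p = 1.3e-05), and 0.13 without a call with library size only. Ipo5 and Ipo9, importers of ribosomal proteins and of histones, changed little, with log2 fold changes of -0.08 and -0.17 (adjusted p = 0.017 for each). Both were called higher with the length trend removed, at 0.25 and 0.17. Ipo5 was the most abundant carrier on the FPKM scale, with a mean of 108 in BMSCs-OE-FNDC5 and 112 in BMSCs-OE-NC. The summed level of the 10 import receptors was 265, 278 and 267 FPKM in BMSCs-OE-FNDC5, against 264, 267 and 267 FPKM in BMSCs-OE-NC, so that the groups overlapped. This rests on the scaling in the deposited FPKM, whose constants per library act like TMM factors. As counts per kilobase over the library total, the sums were 233 to 245 in BMSCs-OE-FNDC5 and 304 to 309 in BMSCs-OE-NC.

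**Figure D3:**
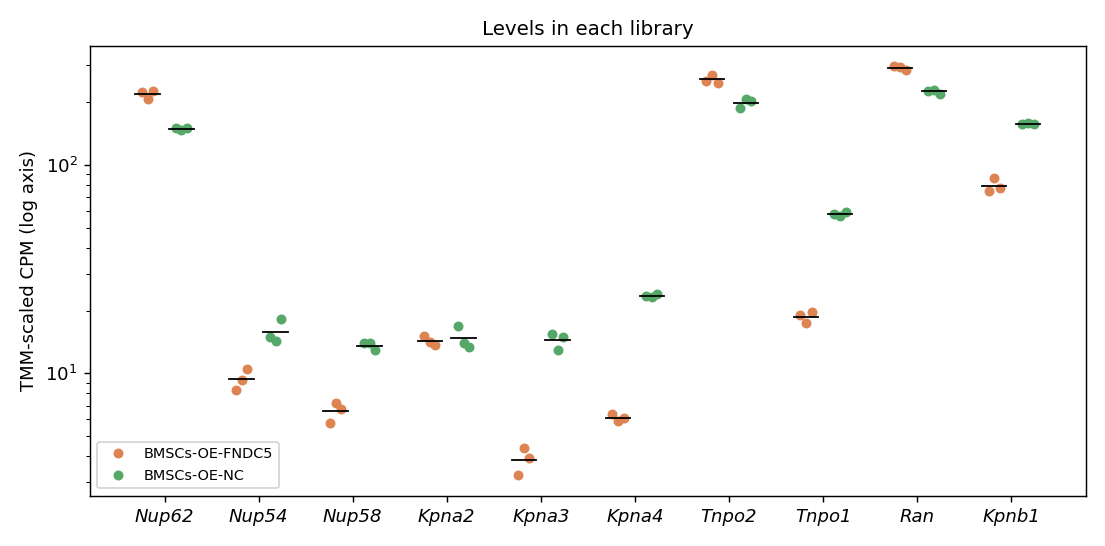
TMM-scaled CPM (y axis, log scale) of 10 members in each of 3 libraries of BMSCs-OE-FNDC5 (orange, left of each pair) and BMSCs-OE-NC (green), with the group mean as a black line. Nup62, Tnpo2 and Ran lie higher in BMSCs-OE-FNDC5, Kpna2 overlaps, and the other six lie lower, most widely Kpna4 with 5.93 to 6.35 CPM against 23.1 to 24.1 CPM in BMSCs-OE-NC.

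All 6 exportins were lower. Xpo1, the main exportin for proteins with a leucine-rich export signal, had 21.2, 20.5 and 22.4 CPM in BMSCs-OE-FNDC5, against 39.7, 38.6 and 43.3 CPM in BMSCs-OE-NC. It was 1.90-fold lower (log2 fold change -0.93, SE 0.07, adjusted p = 2.9e-07). Xpot, the exportin for transfer RNA, had 23.8, 22.0 and 21.5 CPM in BMSCs-OE-FNDC5, against 48.7, 45.5 and 45.9 CPM in BMSCs-OE-NC. It was 2.08-fold lower (log2 fold change -1.06, SE 0.06, adjusted p = 3.7e-08), the widest change in this group. Xpo5, which exports microRNA precursors, changed least, with 29.2, 29.7 and 25.9 CPM in BMSCs-OE-FNDC5, against 38.7, 38.1 and 39.7 CPM in BMSCs-OE-NC. Its log2 fold change was -0.46 (SE 0.07, adjusted p = 6.6e-05). Xpo7, Xpo4 and Xpo6 (an exportin for actin) had log2 fold changes of -0.96, -0.89 and -0.67. The summed exportin level was 28.3, 27.3 and 27.3 FPKM in BMSCs-OE-FNDC5, against 49.0, 46.8 and 47.8 FPKM in BMSCs-OE-NC. Exportin genes are long, with a median of 4869 bases. With the length trend removed, Xpo1, Xpo7 and Xpot remained lower at -0.40, -0.36 and -0.70, whereas Xpo6 (-0.07), Xpo4 (0.10) and Xpo5 (0.15) were not called. All 6 were lower with library size only.

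The genes of the Ran cycle were higher with TMM scaling, and only Rangap1 of them was so under every scaling. Ran had 297, 294 and 284 CPM in BMSCs-OE-FNDC5, against 226, 230 and 220 CPM in BMSCs-OE-NC. The groups did not overlap and the log2 fold change was 0.37 (SE 0.03, adjusted p = 6.2e-07), but it was 0.00 with library size only and -0.02 with the length trend removed. Rangap1, which activates the GTPase of Ran at the cytoplasmic face, had 173, 175 and 175 CPM in BMSCs-OE-FNDC5, against 112, 110 and 108 CPM in BMSCs-OE-NC. It was 1.59-fold higher (log2 fold change 0.67, SE 0.03, adjusted p = 5.2e-09), with 0.30 by library size only and 0.90 with the length trend removed. Nutf2, which returns Ran with GDP to the nucleus, had 128, 126 and 134 CPM in BMSCs-OE-FNDC5, against 107, 111 and 111 CPM in BMSCs-OE-NC. Its log2 fold change was 0.24 (SE 0.04, adjusted p = 0.00011), and it was called lower at -0.13 with library size only. Ran was the most abundant member, with a mean of 264 FPKM in BMSCs-OE-FNDC5 and 201 FPKM in BMSCs-OE-NC. The FPKM ratio of Ran to Kpnb1 was 20.3, 17.5 and 18.9 in BMSCs-OE-FNDC5, against 7.38, 7.43 and 7.21 in BMSCs-OE-NC. This ratio is a description, and it sets a short gene (1104 bases) against a long one (5669 bases). With the length trend removed, the log2 fold changes of Ran and Kpnb1 were -0.02 and -0.28.

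The members that were more abundant tended to have the higher log2 fold changes, with a Spearman rho of 0.533 between mean CPM and log2 fold change over the 48 members and 0.280 over all 12104 genes. The points share the same libraries, and the correlation is a description. The 51 rows summed to 907, 918 and 907 FPKM in BMSCs-OE-FNDC5, against 835, 841 and 831 FPKM in BMSCs-OE-NC. As counts per kilobase over the library total the direction turned, with 794 to 808 in BMSCs-OE-FNDC5 and 961 to 973 in BMSCs-OE-NC. Ran, Ipo5, Nup62, Nutf2, Rangap1, Tnpo2 and Ipo4 had the highest mean FPKM in BMSCs-OE-FNDC5, and of these only Ipo5 was not higher with TMM scaling.

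**Figure D4:**
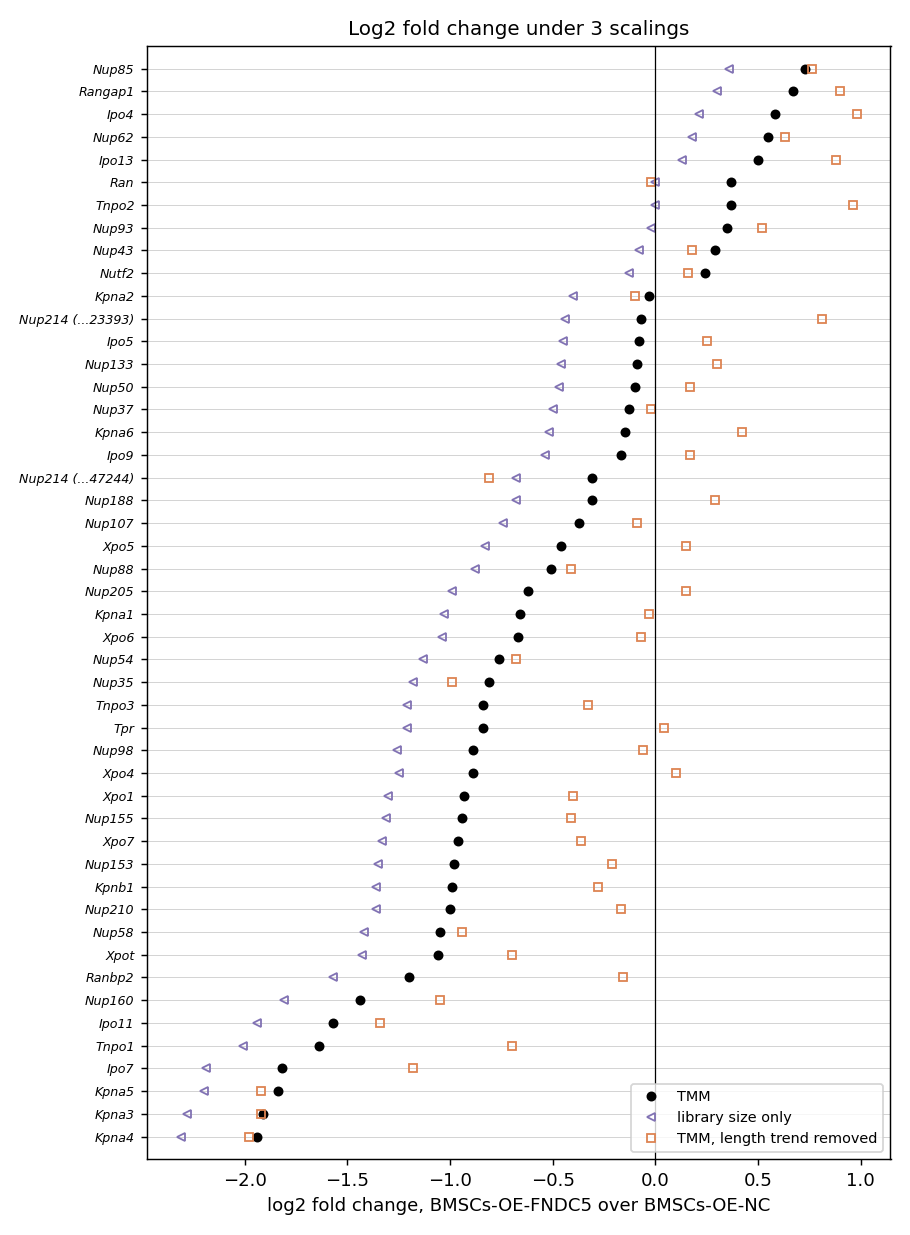
Log2 fold change (x axis, of BMSCs-OE-FNDC5 relative to BMSCs-OE-NC) for the 48 tested members under TMM scaling (black), library size only (purple triangles) and TMM with the length trend removed (orange squares). Triangles lie about 0.37 left of the black points, squares of long genes such as Ranbp2 move right (-1.20 to -0.16), and Kpna3 and Kpna4 hardly move with the length trend removed (-1.92 and -1.98).

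Genes of the same pathway that the rule does not take were counted in lists. Over all 12104 genes tested, 36.9% were higher and 38.8% were lower by the same rule, and several lists lie near these shares. Of 8 tested pore genes under other names, 3 were higher and 3 were lower (median log2 fold change -0.13). Aaas, the aladin gene, was the highest at 0.86 (adjusted p = 6.9e-06) and Ahctf1, which brings the Y complex to chromatin, the lowest at -1.60 (adjusted p = 4.3e-07). Of 11 tested Ran regulators and other carriers, 3 were higher and 5 were lower (median 0.10). The lowest was Ranbp6 at -2.50 (adjusted p = 0.0015), with 15, 10 and 0 counts in BMSCs-OE-FNDC5, against 62, 69 and 61 in BMSCs-OE-NC. Ranbp6 passed the filter on low counts through BMSCs-OE-NC. The largest value was that of Ncbp2, a subunit of the cap-binding complex, at 1.34, but it did not pass the test and its counts of 21, 16 and 106 in BMSCs-OE-FNDC5 were uneven. Rcc1, which loads Ran with GTP, was higher (0.90) and Cse1l, which returns importin alpha to the cytoplasm, was lower (-0.84, adjusted p = 9.8e-05). These 2 were chosen after their values were seen. With library size only, 3 pore genes under other names were higher and 5 were lower. For the Ran regulators and other carriers, 2 were higher and 6 were lower. With the length trend removed, the first list had 4 higher and 1 lower, and the second again had 2 and 6.

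In the messenger RNA export list, 9 of 16 tested genes were higher and 5 were lower (median 0.37). The range ran from Thoc2, a subunit of the THO complex, at -2.33 (adjusted p = 5.4e-05) to Nxt1, partner of the export receptor Nxf1, at 0.93 (adjusted p = 3.7e-06). Thoc2 had few counts, with 11, 4 and 11 in BMSCs-OE-FNDC5, against 62, 63 and 52 in BMSCs-OE-NC. It passed the filter on low counts through BMSCs-OE-NC. Of 13 lamina and nuclear envelope genes, 5 were higher and 4 were lower (median 0.10), from Lemd3 at -1.43 (adjusted p = 5.6e-07) to Banf1 at 1.22 (adjusted p = 2.8e-10). With library size only these 2 lists had 5 higher and 7 lower, and 4 higher and 7 lower. With the length trend removed they had 12 higher and 4 lower, and 7 higher and 3 lower. The cell cycle list had 14 of 19 genes higher and 2 lower (median 0.86), with Birc5 at 2.53 (adjusted p = 7.1e-08) and Bub1 at -0.64 without passing the test. It had 12 higher and 3 lower with library size only, and 16 higher and 1 lower with the length trend removed. Its summed level was 432 to 434 CPM in BMSCs-OE-FNDC5 against 255 to 269 CPM in BMSCs-OE-NC. The part of the cell cycle genes in the values of the nuclear pore and transport genes was not tested.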

How the data were processed

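RNA-seq libraries of BMSCs-OE-FNDC5 and BMSCs-OE-NC (3 each) were analysed from the gene counts and FPKM values that the authors deposited. The submitters' notes list HTSeq 0.6.0, HISAT2 2.1.0, Bowtie2 2.2.3, DESeq2, TopHat2 and CASAVA, and give no strand setting. They also name mm10 and retinas, whereas 32883 of 33508 genes have rat Ensembl identifiers. The table names no rat build. The deposited FPKM values equal the count divided by gene length and by a constant per library. Library totals were 16640635 to 17965722 counts.

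Counts were tested in R 4.3.3 with edgeR 4.0.16 (filterByExpr, minimum count 10 and minimum total 15, TMM, glmQLFit, glmQLFTest). Benjamini-Hochberg adjustment covered the 12104 genes tested. CPM values are TMM-scaled, and an exact permutation test of 3 against 3 libraries cannot go below p = 0.1. SE is the standard error of the log2 fold change, derived as its absolute value over the square root of the F statistic of the test. Of the 18 alternatives, 12 changed the scaling, filter, tool, unit or design and 6 left out 1 library each. They used DESeq2 1.42.0, limma 3.58.1, log2(FPKM + 1) and log2(FPKM + 0.1), and a lowess trend with gene length (span 0.3). The procedure was tested on simulated data that held no trend with gene length, so the effect of that trend on the calls was not covered.

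The members, roles, lists and alternatives were chosen with earlier results of these data known. Library values are given for members past an absolute log2 fold change of 1, the highest and lowest of each role, and Ran, Kpnb1, Xpo1, Kpna2, Nup98 and Nup62, which gave 27 members. Nup54 was added after its values were seen. In each pathway list the highest and lowest gene are named. Sums by library total and the marker sum without Vim were added after the data were seen. Promoter windows were matched by symbol to RefSeq (GRCr8), and a symbol with several windows was not used. A planned comparison of protein sequences was not made here. Figures were drawn with matplotlib 3.10.9.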

Additional observations from a re-analysis of the deposited data

How the results depend on the processing

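Of 484 values for the 27 members with library values, 449 kept their direction and their side of the threshold, 22 (6 members) lost their call, 5 (3 members) gained one and 8 (7 members) changed sign. The cause was not tested.

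With the length trend removed, 15 members were higher, 19 were lower and 6 were lower past both thresholds, with a median log2 fold change of -0.07. Among the 27, signs changed for Nup214 (ENSRNOG00000023393) at 0.81, Xpo5 at 0.15, Nup50 at 0.17 and Ran at -0.02, and among the others for Xpo4, Ipo5, Ipo9, Kpna6, Nup188, Nup205, Tpr and Nup133 (0.04 to 0.42). With library size only, 4 were higher and 24 were lower past both thresholds, with a median of -1.01, and signs changed for Nutf2 at -0.13, Nup93 at -0.02 and, outside the 27, Nup43 at -0.08. Upper-quartile scaling gave 16 lower past both thresholds and a median of -0.74. With log2(FPKM + 1) there were 4 lower past both thresholds, with or without the filter, and the median was -0.36 with it and -0.35 without. With log2(FPKM + 0.1) the median was -0.54, and with at least 10 counts in every library, which drops Kpna5 and Nup210, it was -0.59. DESeq2 called 27 members lower, without Ipo5, Ipo9, Kpna6, Nup107 and Nup210.

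With each library left out in turn, 8 to 10 members were higher, 28 to 31 were lower and 9 to 11 were lower past both thresholds, and the median ran from -0.65 to -0.60. Kpna2, never called in these, ran from -0.11 to 0.07. With the replicate block, 9 were higher and 31 were lower, Nup210 losing its call (adjusted p = 0.062), and the median was -0.64. Deviations of same-numbered libraries correlated at 0.0213, -0.0138 and -0.0067. Such values over all genes cannot show if these libraries shared a rat, culture or transduction. Depth limited Kpna5, Nup210 and Nup210l.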
